A study of Rattus norvegicus with 23 samples.

Results

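The nuclear-encoded subunits of respiratory complex I were followed in bulk polyadenylated RNA of femora from female Wistar rats. Members were the protein-coding rows of the deposited count table whose gene name starts with Nduf but not Ndufaf and that do not lie on the mitochondrial chromosome. The rule found 47 of 30562 rows, of which 46 are reported here, and 40 of these had enough counts to be tested among 15271 genes. The 23 libraries formed 5 groups. MetOP, for metabolic osteoporosis, is a model in which rats receive L-NAME, which blocks nitric oxide synthase, along with a high-fat diet, and all MetOP groups share it. MetOP rats were given semaglutide together with PYY3-36 (called the combination here, n = 5), semaglutide alone (n = 5), PYY3-36 alone (called PYY here, n = 4) or saline (n = 5). Under treatment, each PYY library carries its own peptide name, not always PYY3-36, while the titles say only pyy. PYY3-36 is the name used here for all of them. Healthy controls (n = 4) carry the words standard and saline and the code oLN in their titles. Every MetOP title has the code LN in that place, and the titles do not explain either code. Semaglutide is a GLP-1 receptor agonist used against obesity and diabetes. PYY3-36, a hormone of the gut, curbs food intake via the Y2 receptor. The labels give no age, dose or duration and do not explain a second diet abbreviation, lfd, in the titles of every MetOP library. Nor do they say whether each library is a different rat, and p-values therefore speak of the spread between libraries, which may be technical. Libraries are called by their name in the labels, such as A216.

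Complex I is the entry point of the respiratory chain, where electrons pass from NADH to ubiquinone while protons are pumped across the inner mitochondrial membrane. A core shared with bacteria does this work, part of it encoded in mitochondrial DNA (the Mt-nd genes) and part in the nucleus. In mammals a shell of supernumerary subunits surrounds the core and is needed for its assembly and stability. Skeletal muscle, above all its slow oxidative fibres, is rich in mitochondria, whereas mature red cells have none.

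Library totals ran between 19.25 and 40.65 M counts, and mitochondrially encoded genes took 46.1 to 83.9% of them, which left 4.28 to 16.1 M counts for nuclear genes. The members together held 0.219 to 1.03% of the nuclear counts. Bone markers were present in every library, with 14 osteoblast and osteocyte genes summing to 288.5 CPM in combination library A251 at the lowest and 10350 CPM in PYY library A216 at the highest. Skeletal muscle markers were present too. All 27 with a row had counts in every library, and they made up 1.38% (combination A320) to 25.8% (combination A251) of the nuclear counts. CPM are counts scaled to a common library size by edgeR's TMM factors, and log2 levels carry a prior count of 2.

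Per unit of gene length, Ndufv2 was the most abundant member. Its level averaged 160 FPKM (fragments scaled by gene length and library depth, as deposited) over the 23 libraries, with a range of 30.1 to 314.9 FPKM. Ndufv2 carries an iron-sulfur cluster next to the site where NADH is oxidised. Ndufb8, a membrane-arm subunit, followed with 122 FPKM and Ndufa6, a matrix-arm subunit that anchors the acyl carrier protein, with 102.1 FPKM. The ranges of these 3 over libraries overlapped widely. Within a library, Ndufv2 was above Ndufa6 each time and above Ndufb8 in all libraries but combination A253 and A320. No test was made between them. The order was the same for 46 of 46 members when scaled CPM were divided by the deposited gene length. Both measures divide the same counts by the same lengths, so this is no separate check of the order. The order depends on those lengths. Ndufs7 had more counts than Ndufs8 (38035 against 13463) but ranked below it, at a length of 6048 against 1769 bases.

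The other core subunits of the matrix arm lay lower. Ndufs3, a structural core subunit, averaged 79.98 FPKM, Ndufs1, the large iron-sulfur subunit, 39.6 FPKM, and Ndufv1, which binds NADH and the flavin, 37.02 FPKM. Ndufs8 and Ndufs7, iron-sulfur subunits on the path to ubiquinone, averaged 11.7 and 9.71 FPKM. Ndufs4, whose loss in mice causes a severe mitochondrial disease, averaged 34 FPKM, and Ndufab1, the mitochondrial acyl carrier protein found in both arms, 42.6 FPKM. Among the members tested, the lowest levels were those of Ndufa10l1 (1.79 FPKM), Ndufv3-ps1 (2.99 FPKM) and Ndufa4l2 (3.15 FPKM).

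Of the tested members, 34 were textbook subunits with a tested row, which counts Ndufs6l1, a RefSeq synonym of Ndufs6. The count table has no row named Ndufa7 or Ndufb1. The tested rows Ndufs5-ps2, Ndufa3-ps3, Ndufv3-ps1 and Ndufa10l1 are named as pseudogenes or like copies, and reads they share with their parent genes make their counts uncertain. The 6 members not tested were Ndufs5-ps1, with 72 counts in all, and Ndufa2-ps1, Ndufa5-ps4, Ndufb4l1, Ndufa3-ps1 and a second Ndufb2 row on chromosome 15, each with 0 counts in every library. The spans of 15 members overlap another gene, namely Ndufs3, Ndufs7, Ndufs1, Ndufa13, Ndufb5, Ndufa4, Ndufa8, Ndufa2, Ndufb6, Ndufa1, Ndufb9, Ndufa3, Ndufa4l2, Ndufv3-ps1 and Ndufa5-ps4. In 2 of them the other gene is on the same strand. These are Ndufs7, wholly inside the span of Cirbp, and Ndufa13, of whose span 21.2% overlaps Yjefn3. Whether counting used strand is not given in the sources used here, so counts of all 15 are uncertain in that respect.

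The promoters of the members were searched for motifs of factors known to drive nuclear genes of the respiratory chain. RefSeq promoters of GRCr8, 250 bases before to 50 bases after the start, were found for 35 members, 32 of them textbook subunits. On either strand, the NRF1 motif GCGCANGCG occurred in 9 of these 32 promoters (28.1%), against 5.8% of all 33469 RefSeq promoters of that length. YY1's AAGATGGCG occurred in 7 (21.9%, against 1.73% of all promoters), the CCGGAAG of GABP and other ETS factors in 7 (21.9%, against 8.75%), and the AAGGTCA of the oestrogen-related receptors in 4 (12.5%, against 4.61%). The GC box GGGCGG was found in 15 (46.9%, against 33.1%) and the hypoxia element ACGTG in 8 (25.0%, against 19.3%). At least 1 of the NRF1, YY1 and GABP motifs was found in 19 of the 32. Matches are letters in a window and not measured binding. The promoters compared were not matched for base composition, and the part of these motifs in the subunit levels was not tested. The 250 bases before the start are shown 5′ to 3′ on the gene's strand for 4 members that the results below turn on or that hold several motifs, with matched motifs in capitals. Ndufs6l1 (chr1:31797150-31797399, plus strand) holds NRF1, GC box and hypoxia element letters, Ndufa6 (chr7:115750318-115750567, minus strand) holds GABP and NRF1 letters, and Ndufs8 (chr1:210573699-210573948, minus strand) holds GABP letters. In Ndufa4l2 (chr7:65241919-65242168, plus strand) only a GC box was found in this stretch.
Ndufs6l1: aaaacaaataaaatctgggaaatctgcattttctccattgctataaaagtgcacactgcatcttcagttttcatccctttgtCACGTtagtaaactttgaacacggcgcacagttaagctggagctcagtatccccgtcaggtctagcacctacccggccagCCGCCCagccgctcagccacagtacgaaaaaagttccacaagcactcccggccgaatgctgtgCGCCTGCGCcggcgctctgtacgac
Ndufa6: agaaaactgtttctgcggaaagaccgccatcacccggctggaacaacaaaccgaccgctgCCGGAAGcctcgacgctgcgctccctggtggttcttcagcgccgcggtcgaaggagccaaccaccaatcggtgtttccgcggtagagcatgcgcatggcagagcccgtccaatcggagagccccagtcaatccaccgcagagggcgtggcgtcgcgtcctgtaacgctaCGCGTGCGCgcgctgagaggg
Ndufs8: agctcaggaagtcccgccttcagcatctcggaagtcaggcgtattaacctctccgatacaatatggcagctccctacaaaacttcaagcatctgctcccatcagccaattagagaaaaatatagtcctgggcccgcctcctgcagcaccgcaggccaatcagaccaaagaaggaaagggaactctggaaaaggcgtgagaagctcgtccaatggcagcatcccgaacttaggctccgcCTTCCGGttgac
Ndufa4l2: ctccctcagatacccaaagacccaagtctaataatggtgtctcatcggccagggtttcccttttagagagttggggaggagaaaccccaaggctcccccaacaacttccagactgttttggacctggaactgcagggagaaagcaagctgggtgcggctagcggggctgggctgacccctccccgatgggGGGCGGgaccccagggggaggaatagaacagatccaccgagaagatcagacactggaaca

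The 34 subunit genes varied as a block across libraries. Over the 23 libraries, the SD of log2 CPM of a subunit had a median of 0.82 (range 0.71 to 1.00), whereas the SD of the log2 ratio of 2 subunits had a median of 0.30 over 561 pairs (range 0.13 to 0.58). Ndufb4, a membrane-arm subunit, kept closest to the mean of the 34, with an SD of 0.11 around it. Ndufa3 (SD 0.38), Ndufs8 (0.38) and Ndufv3 (0.32) strayed most. These are descriptions over libraries that share scaling and makeup, and no test was made on them. Core, supernumerary matrix-arm and membrane-arm genes all showed the block, as the heat map of the subunits shows.

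**Figure D1:**
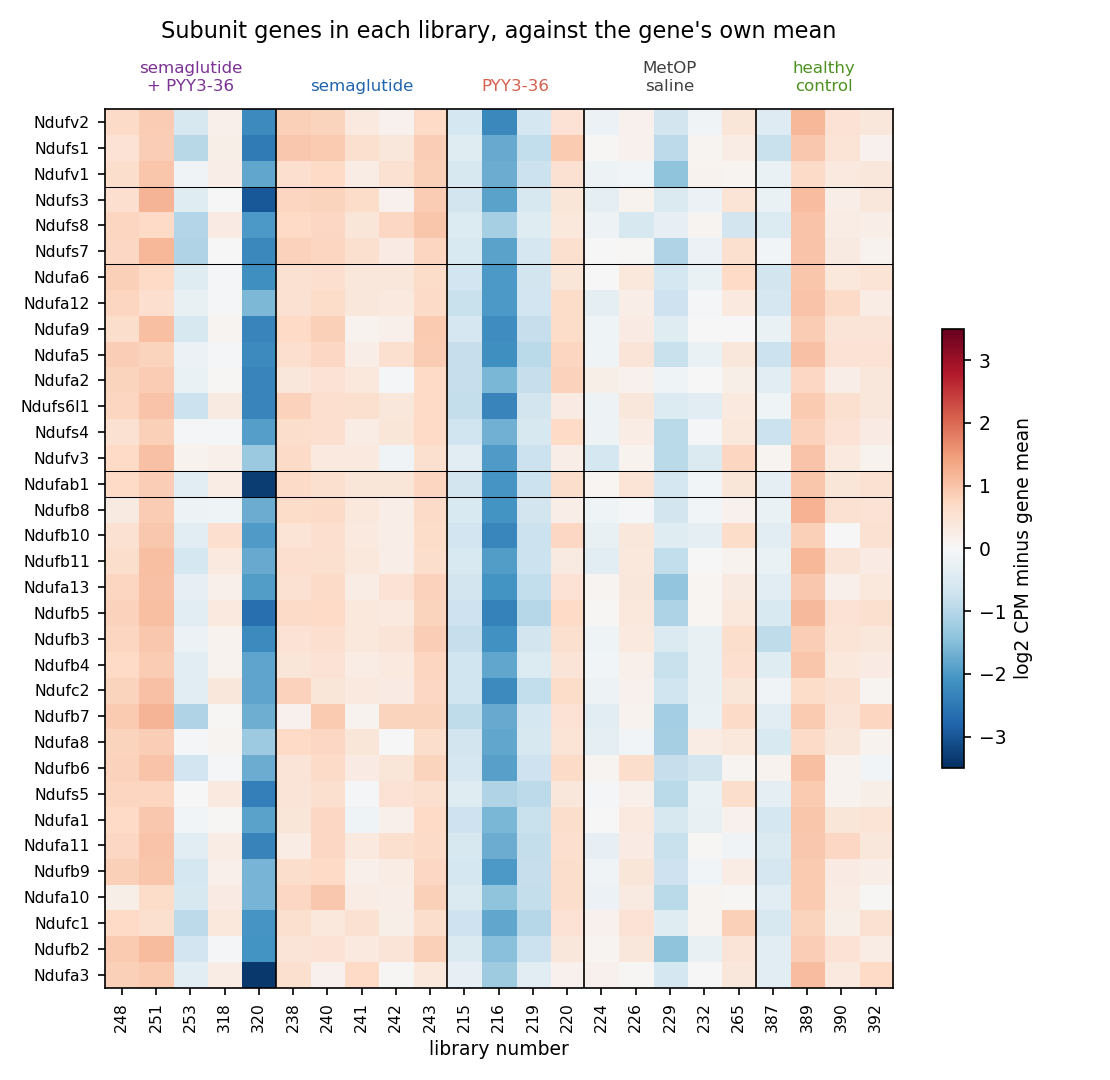
Each row is 1 of the 34 subunit genes, ordered from the core matrix arm at the top to the membrane arm at the bottom, and each column is 1 library, by group. Colour gives log2 CPM minus the gene's mean over the 23 libraries. Whole columns are blue (combination A320 and PYY A216) or red (combination A251 and healthy control A389), so genes of every role differ between libraries in the same direction.

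The mean log2 CPM of the 34 genes, used here as the subunit level, was 6.32, 6.54, 5.18, 5.78 and 3.54 in the combination libraries. It was 6.22, 6.26, 5.96, 5.95 and 6.36 in the semaglutide libraries, 5.001, 3.77, 4.90 and 6.16 in the PYY libraries, 5.50, 5.86, 4.85, 5.51 and 5.97 in the MetOP saline libraries, and 5.22, 6.56, 6.01 and 5.97 in the healthy controls. Semaglutide libraries lay close together near the top, combination libraries reached the lowest and nearly the highest values, PYY libraries other than A220 lay below all saline libraries but A229, and semaglutide libraries were above all saline libraries but A265. Group means were 5.47 ± 1.20 for the combination, 6.15 ± 0.18 for semaglutide (SD, n = 5 each), 4.96 ± 0.98 for PYY (n = 4), 5.54 ± 0.44 for MetOP saline (n = 5) and 5.94 ± 0.55 for healthy controls (n = 4).

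**Figure D2:**
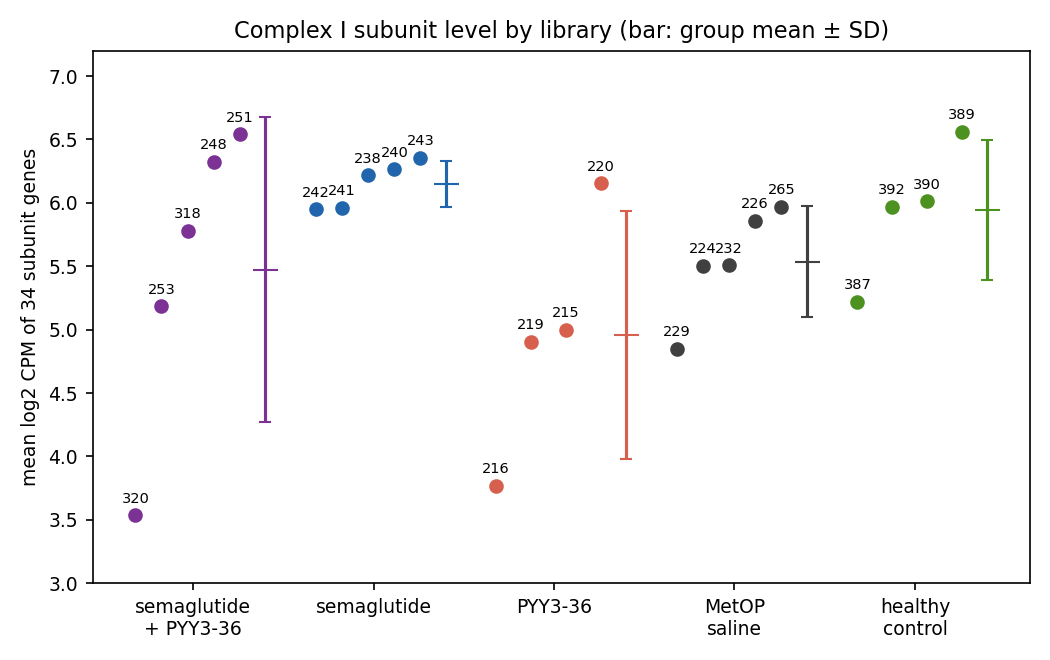
The vertical axis gives the mean log2 CPM of the 34 subunit genes and each point is 1 library with its number, by group on the horizontal axis. Bars give the group mean ± SD. The 5 semaglutide libraries lie between 5.95 and 6.36, while the combination libraries run between 3.54 and 6.54 and the PYY libraries between 3.77 and 6.16.

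Semaglutide was compared with MetOP saline to ask what the drug changed in the model. The subunit genes were higher on average with semaglutide. Of the 40 tested members 38 had a log2 fold change above 0, against 47.6% of all genes tested, and the median was 0.57, against -0.04 over all genes. The 34 textbook subunits lay between 0.17 and 1.01. No member and no gene passed edgeR's quasi-likelihood test at a Benjamini-Hochberg adjusted p under 0.05 (0% of 15271). At an unadjusted p under 0.05 stood 1 member and 1744 genes (11.4% of all tested). DESeq2 called 97 genes and limma voom 0, again with 0 members.

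The core subunit Ndufs8 (chromosome 1, 201140585 to 201144511, minus strand) had the smallest p among the members. It stood at 30.8, 31.5, 25.6, 31.5 and 37.35 CPM in semaglutide libraries, against 17.0, 12.9, 15.7, 20.2 and 12.3 CPM in MetOP saline libraries. Each semaglutide library was above each saline library. The log2 fold change was 1.01 ± 0.38 (SE), with an adjusted p of 0.393. Ndufv1 had 102.3, 109.7, 81.2, 97.7 and 119.6 CPM with semaglutide, against 59.8, 63.5, 25.3, 73.1 and 72.5 CPM in MetOP saline. Its groups did not overlap either, and the log2 fold change was 0.80 ± 0.40 (adjusted p = 0.449). Ndufs1, Ndufb8 and Ndufs6l1 were the other members whose groups did not overlap. That makes 5 of 40, and such separation upward was seen for 2.71% of all genes tested. Ndufa4l2 (log2 fold change -0.29) and Ndufa3-ps3 (-0.12) were the members below 0.

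The comparisons share groups, MetOP saline above all, and are therefore not independent of each other. Healthy controls served to ask what the model itself changed. MetOP saline libraries had lower mean levels for nearly the whole list. Of the 40 tested members 1 had a log2 fold change above 0, against 52.5% of all genes tested, with a median of -0.39, against 0.04 over all genes. No member reached an unadjusted p under 0.05, as 1000 genes did (6.55%). With edgeR 0% of genes passed adjustment, and limma voom called none, whereas DESeq2 called 51 genes and none of the members. Ndufb8 had the lowest fold change. It stood at 77.1, 83.9, 54.8, 80.1 and 96.1 CPM in MetOP saline, against 72.8, 199.6, 124.1 and 122.6 CPM in healthy controls. Control A387 lay among the saline libraries and the other controls above them, and the log2 fold change was -0.73 ± 0.40 (adjusted p = 0.846). Ndufs8 followed with -0.64 ± 0.40 (adjusted p = 0.888). Without healthy control A389, the library of highest subunit level, the median was -0.17. Ndufa3-ps3 (0.09) and Ndufc1 (-0.03) were highest.

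With PYY alone the mean levels were below those of MetOP saline. Only 1 of the 40 tested members was above 0, against 49.5% of all genes, and the median log2 fold change was -0.40, against -0.01 over all genes. By edgeR no member and 0% of genes passed adjustment, limma voom called 0 genes and DESeq2 called 5, none a member. At an unadjusted p under 0.05 stood 1 member, Ndufa4l2, and 740 genes (4.85% of all tested). Ndufc1, a small membrane-arm subunit, had 24.8, 11.8, 20.7 and 58.1 CPM with PYY, against 45.55, 58.9, 30.7, 43.8 and 73.1 CPM in MetOP saline. PYY library A220 lay within the saline range and the other PYY libraries below it. The log2 fold change was -0.81 ± 0.45 (adjusted p = 1.00). Ndufs8 was at -0.03, and at 0.0048 with DESeq2 size factors. Lower than Ndufc1, at a few counts, were Ndufv3-ps1 (-1.46) and Ndufa3-ps3 (-1.22). The median was -0.12 without PYY A216 and -0.94 without PYY A220, so these 2 libraries moved it most.

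Mean levels in the combination lay close to those in MetOP saline. Of the 40 tested members 35 were above 0, against 52.5% of all genes, with a median log2 fold change of 0.19, against 0.02 over all genes. With edgeR no member and 0% of genes passed adjustment, no member and 468 genes (3.06%) had an unadjusted p under 0.05, limma voom called 0 genes and DESeq2 called 5 genes with no member among them. The direction of the median rested on combination A251. Without it the median was -0.06, with 13 of 40 members above 0, and limma voom also gave -0.04. Without combination A320 it was 0.46. Ndufv3, an accessory subunit at the NADH end, had 51.3, 63.4, 34.5, 35.7 and 12.7 CPM in the combination, against 20.4, 34.1, 16.4, 22.2 and 53.45 CPM in MetOP saline. The groups overlapped throughout, and the log2 fold change was 0.43 ± 0.39 (adjusted p = 1.00). Ndufs5-ps2 had the highest value (0.56 ± 0.44, adjusted p = 1.00), and Ndufv3-ps1 (-0.62) and Ndufc1 (-0.25) the lowest.

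Against semaglutide alone, the combination had lower mean levels. Fold changes were above 0 for 2 of the 40 tested members, against 53.7% of all genes, and the median was -0.36, against 0.05 over all genes. No member and 863 genes (5.65%) had an unadjusted p under 0.05. With edgeR no member and 0% of genes passed adjustment, limma voom called 0 genes, and DESeq2 called 16 genes, none of them a member. Ndufa10, a membrane-arm subunit related to nucleoside kinases, had 60.3, 80.6, 35.1, 63.8 and 16.7 CPM in the combination, against 86.3, 100.7, 62.1, 61.45 and 93.4 CPM with semaglutide. The log2 fold change was -0.66 ± 0.38 (adjusted p = 0.816), and the groups overlapped. Ndufs8 stood at -0.64 ± 0.38 (adjusted p = 0.816), Ndufs1 at -0.73 ± 0.48 (adjusted p = 0.827), Ndufv3-ps1 at -1.14 ± 0.98 and the members above 0, Ndufa4l2 and Ndufa3-ps3, at 0.22 and 0.02. The median was -0.09 without combination A320, -0.22 without A253 and -0.59 without A251, and -0.67 with limma voom.

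The combination was above PYY alone in mean levels. Fold changes of 39 of the 40 tested members were above 0, against 52% of all genes, with a median of 0.60, against 0.02 over all genes. At an unadjusted p under 0.05 stood 1 member, Ndufa4l2, and 953 genes (6.24% of all tested). With edgeR no member and 0% of genes passed adjustment, DESeq2 called 13 genes and limma voom 1, with 0 members each. Ndufv3 had 51.3, 63.4, 34.5, 35.7 and 12.7 CPM in the combination, against 23.8, 7.95, 18.6 and 37.1 CPM with PYY, a log2 fold change of 0.85 ± 0.42 (adjusted p = 0.803) with overlapping groups. Ndufa3-ps3 (1.12) and Ndufs5-ps2 (0.86) were highest, and Ndufs1 (0.22) was lowest after Ndufa4l2. The median was 1.17 without PYY A220, 0.34 without PYY A216 and 0.29 without combination A251. Without PYY A220, 32 of the 40 members had an unadjusted p under 0.05, and without combination A320 27 had. The share of all genes in those fits is not given here, so these counts cannot be called particular to the members.

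The largest contrast lay between semaglutide alone and PYY alone. Of the 40 tested members 39 were above 0, against 46.7% of all genes tested, with a median of 0.98, against -0.06 over all genes. At an unadjusted p under 0.05, 17 members were higher, as were 1058 genes (6.93% of all tested), and 1 was lower, as were 1517 genes (9.93%). That count of 18 members was 0 without PYY A216, 2 without PYY A215 or A219, 5 to 7 without semaglutide A238, A240 or A243, and 37 without PYY A220. For these fits, too, the share of all genes at that threshold is not given here. In the fit of all libraries no member was called after edgeR's adjustment. A single gene outside the list was (0.00655%), Ddr2, a collagen receptor, at a log2 fold change of -2.43 and an adjusted p of 0.00140. DESeq2 called 504 genes and limma voom 1, with 0 members in both. Ndufs6l1, the zinc-binding subunit of the matrix arm (chromosome 1, 29968842 to 29977467, plus strand), had 61.1, 52.3, 51.1, 46.2 and 56.2 CPM with semaglutide, against 19.5, 7.08, 22.3 and 42.8 CPM with PYY. Each semaglutide library was above each PYY library, and the log2 fold change was 1.22 ± 0.47 (adjusted p = 0.215). Groups were apart in this way for 3 of 40 members, the others being Ndufs8 and Ndufa3-ps3, and for 2.89% of all genes tested. Ndufv3-ps1 was higher by 1.98 (adjusted p = 0.361) at 0.395 to 2.31 CPM with semaglutide, against 0.0873 to 0.634 CPM with PYY. Ndufa2, an accessory subunit of the matrix arm, was lowest after Ndufa4l2, at 0.71.

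That contrast was narrowed by PYY library A220, which had by far the highest subunit level of its group. Without it the median was 1.53, and 1021 genes and 11 members passed edgeR's adjusted threshold, 10 of the members higher (2.76% of 15717 genes were) and 1 lower (3.73% were). The 10 were Ndufv1, Ndufs6l1, Ndufa2, Ndufa5, Ndufa12, Ndufa8, Ndufa10, Ndufb8, Ndufc1 and Ndufc2, at log2 fold changes of 1.424 to 1.80, and the lower one was Ndufa4l2. Without PYY A216 the median was 0.71. The interaction, which asks how far the combination was from the summed log2 effects of both drugs, had a median of 0.10 over the 40 tested members, 24 of them above 0, against 51.7% of all genes. No member had an unadjusted p under 0.05, as 700 genes did (4.58%), and edgeR called 0% of genes, limma voom 0 genes and DESeq2 3, none a member. Ndufa3-ps3 (1.24) and Ndufc1 (0.38) were highest, and Ndufa4l2 (-1.24 ± 0.84, adjusted p = 0.999) and Ndufs8 (-0.61) were lowest. The interaction median was -0.24 without combination A251 and 0.59 without PYY A220.

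**Figure D3:**
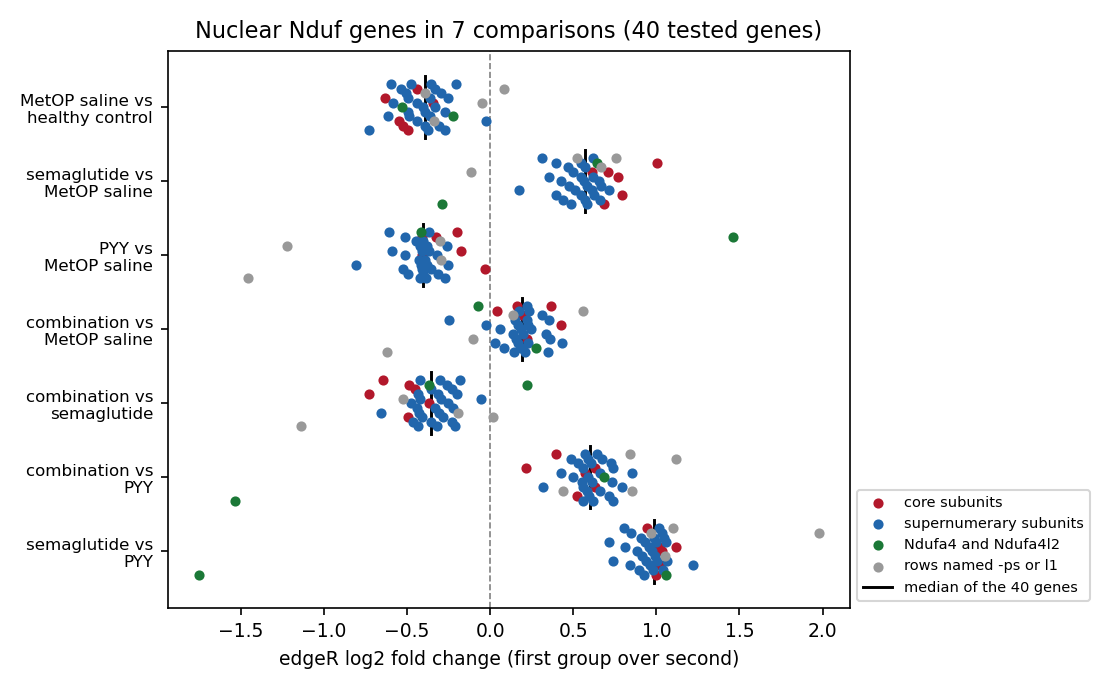
Each point is 1 of the 40 tested members, with its edgeR log2 fold change on the horizontal axis and 7 comparisons down the page, first-named group over second. Black bars give the median of the 40. Core (red) and supernumerary (blue) subunits lie in 1 cloud on the same side of 0 in each comparison apart from a few points near 0 in the combination against MetOP saline, and Ndufa4l2 (the outlying green point) lies apart, at 1.46 in PYY against MetOP saline and at -1.75 in semaglutide against PYY.

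The subunit level was high or low in nearly the same libraries as the level of skeletal muscle RNA. The muscle level, the mean log2 CPM of 27 muscle markers, was 9.76 ± 1.97 in the combination (SD, n = 5), 10.7 ± 0.75 with semaglutide (n = 5), 8.53 ± 1.62 with PYY (n = 4), 9.86 ± 0.65 in MetOP saline (n = 5) and 10.5 ± 0.74 in healthy controls (n = 4), with the semaglutide group highest and the PYY group lowest, as for the subunits. The 5 libraries lowest in subunit level, combination A320, PYY A216, A219 and A215 and MetOP saline A229, were also the 5 lowest in muscle level. In bulk RNA, fewer cells of a type and less RNA per cell cannot be told apart. Between each pair of groups compared, most muscle markers had fold changes of the same sign as the members. All 27 were higher with semaglutide than in MetOP saline (median log2 fold change 0.91) and than with PYY (1.31), all 27 were lower in MetOP saline than in healthy controls (-0.52) and in the combination than with semaglutide (-0.62), and 0 of them passed edgeR's adjusted threshold in any comparison. Against MetOP saline 20 of 27 were lower with PYY (-0.34) and 24 higher in the combination (0.33), and 26 were higher in the combination than with PYY (0.62). At an unadjusted p under 0.05 stood 5 of the 27 in semaglutide against PYY.

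**Figure D4:**
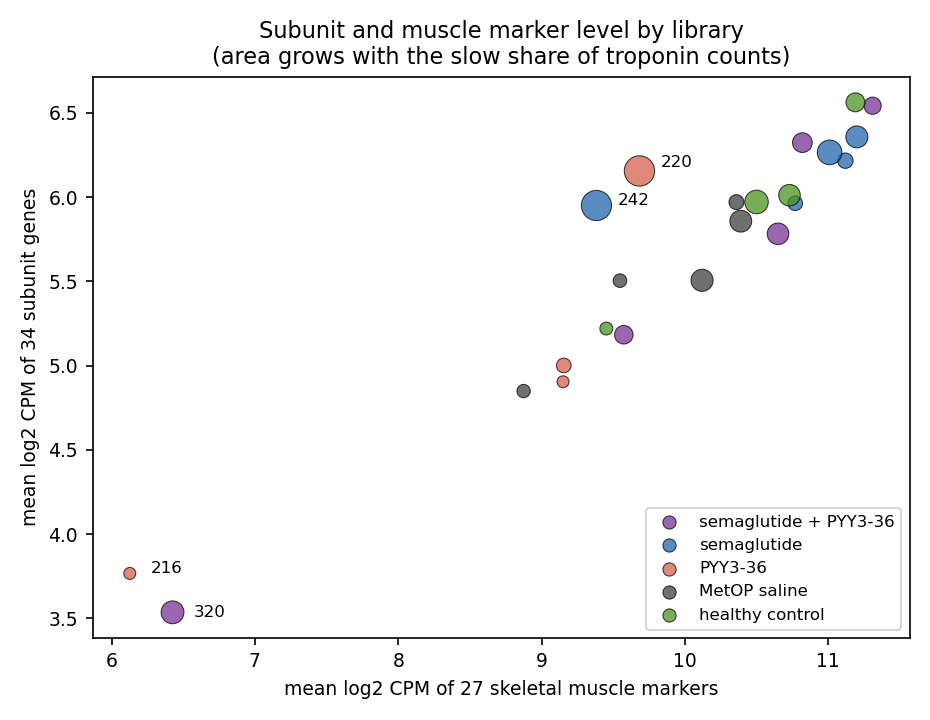
The horizontal axis gives the mean log2 CPM of 27 skeletal muscle markers and the vertical axis that of the 34 subunit genes, with 1 circle per library coloured by group. The area of a circle grows with the share of slow isoforms in the troponin counts. Most libraries lie along a diagonal from combination A320 and PYY A216 at the bottom left upward, and semaglutide A242 and PYY A220, with the largest circles, lie above it.

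With the muscle level added to the edgeR fit, the medians of the 40 tested members moved toward 0 or past it. They were 0.17 for semaglutide against MetOP saline, 0.19 for PYY against MetOP saline, -0.0023 for the combination against MetOP saline, -0.16 for the combination against semaglutide, -0.19 for the combination against PYY, -0.02 for semaglutide against PYY, -0.06 for MetOP saline against healthy controls and -0.33 for the interaction. No member was called in any of these fits. The markers hold both fast-fibre and slow-fibre genes, so this covariate also carries fibre type. Beside semaglutide's higher subunit levels, markers of some other cell types were lower. All 14 osteoblast and osteocyte genes were lower with semaglutide than in MetOP saline (median -2.30, 12 of them at an unadjusted p under 0.05), as were 11 of 11 erythroid genes (-1.57) and 8 of 8 chondrocyte genes (-5.89). Chondrocyte genes summed to 3898, 1344, 1673, 39.1 and 27.9 CPM in the MetOP saline libraries, against 4.44 to 64.9 CPM with semaglutide. Saline A232 and A265 thus lay within the semaglutide range. Osteoblast and osteocyte sums also overlapped, at 684.1 CPM in saline A265 and 1081 CPM in semaglutide A242. Endothelial genes differed little (median -0.06). Other contrasts differed, and with PYY against MetOP saline 11 of 11 erythroid and 6 of 8 chondrocyte genes were lower (-0.81 and -0.17), as the subunits were, beside 5 of 14 osteoblast and osteocyte genes (0.05). Their part in the subunit levels was not tested.

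Slow and fast muscle isoforms set libraries apart as well. The slow forms Tnni1, Tnnc1 and Tnnt1 made up 89.9% of the troponin counts in semaglutide A242 and 90.9% in PYY A220, against 1.45 to 54.9% in the other libraries. This split of the marker list was made after the values were seen. In semaglutide A242 the slow myosin Myh7 stood at 3596 CPM and the fast myosin Myh4 at 53.8 CPM, and in PYY A220 at 4187 and 98.2 CPM. Their subunit level was high for their muscle level. Subunit level minus muscle level was -3.43 in semaglutide A242 and -3.53 in PYY A220. In the other libraries it was -4.90 to -4.03, apart from PYY A216 (-2.36) and combination A320 (-2.89), the libraries of lowest muscle level. With semaglutide A242 and PYY A220 both left out, the median for semaglutide against PYY was 1.49 and 4 members were called, with Ndufa10, Ndufa12 and Ndufc2 higher (1.26% of 15601 genes were) and Ndufa4l2 lower (4.17% were). For semaglutide against MetOP saline the median was then 0.60 and 0 members were called. The part of fibre type in the subunit levels was not tested.

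Other parts of the respiratory chain were read beside the subunits. Of the 41 nuclear genes of complexes II to V, 40 were higher with semaglutide than in MetOP saline (median log2 fold change 0.56), 40 higher with semaglutide than with PYY (0.96) and 1 higher in MetOP saline than in healthy controls (-0.50), and edgeR called 0 in any comparison. Assembly factors build complex I without staying in it. All 17 were higher with semaglutide than in MetOP saline (median 0.52, with none at an unadjusted p under 0.05) and 16 of 17 were higher with semaglutide than with PYY (0.65). In the second contrast 5 of them had an unadjusted p under 0.05 and 0 were called. Among these, Ndufaf3, an early assembly factor, had a log2 fold change of 0.98 ± 0.39 (adjusted p = 0.220) and Ndufaf6 one of 1.09 ± 0.48 (adjusted p = 0.259). With PYY against MetOP saline 6 of the 17 were above 0 (median -0.19), and in the interaction 4 of the 17 (-0.13).

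The 7 mitochondrially encoded subunits form the core of the proton-pumping membrane arm. Their fold changes had the other sign than most nuclear ones with semaglutide and in the combination against MetOP saline. So they did in MetOP saline against healthy controls and in the combination against semaglutide. Against MetOP saline, all 7 had lower mean levels with semaglutide (median log2 fold change -0.79), with PYY (-1.003) and in the combination (-0.56). All 7 were higher in MetOP saline than in healthy controls (0.35) and in the combination than with semaglutide (0.22). Against PYY, all 7 were higher with semaglutide (0.22) and in the combination (0.47), the same sign as most nuclear members. The interaction had a median of 1.26, with all 7 above 0. All mitochondrially encoded genes together took a mean of 75.25% of counts in MetOP saline and 61.4% with semaglutide. Their mean was 63.6% with PYY, 67.05% in the combination and 68.2% in healthy controls. None passed edgeR's adjusted threshold in these comparisons, and none had an unadjusted p under 0.05. Mt-nd3 came closest with semaglutide (-0.94 ± 0.50, adjusted p = 0.472), Mt-nd6 with PYY (-0.99 ± 0.49, adjusted p = 1.00) and Mt-nd4l in MetOP saline against healthy controls (1.12 ± 0.55, adjusted p = 0.769). Per count of the 34 nuclear subunit genes, a library held 53.4, 27.9, 226.6, 107.6 and 256.8 Mt-nd counts in the combination, 56.7, 50.1, 80.5, 60.3 and 41.0 with semaglutide, 99.6, 357.1, 105.0 and 40.6 with PYY, 84.4, 106.9, 347.9, 99.8 and 171.5 in MetOP saline, and 101.3, 34.8, 74.9 and 157.2 in healthy controls. All semaglutide libraries were below all MetOP saline libraries in this ratio, and the other groups spread over both. The ratio compares libraries only, since gene lengths were not used.

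Of the 11 regulators of mitochondrial genes, such as the NRF1, GABP and PGC-1 family members, 7 were higher with semaglutide than in MetOP saline (median 0.44) and 9 were higher with semaglutide than with PYY (0.41). Gabpa, the DNA-binding subunit of GABP, was among the 4 that were lower in the first contrast and the 2 in the second. It averaged 10.7 CPM with semaglutide, against 16.4 CPM in MetOP saline, a log2 fold change of -0.62 ± 0.20 (adjusted p = 0.389), and -0.69 ± 0.21 against PYY (adjusted p = 0.128). Tfam, which packages and transcribes mitochondrial DNA, averaged 30.6 CPM with semaglutide, against 17.9 CPM with PYY (0.77 ± 0.30, adjusted p = 0.217). It averaged 22.6 CPM in MetOP saline, against 35.35 CPM in healthy controls (-0.64 ± 0.30, adjusted p = 0.751). EdgeR called 0 of the 11 in any comparison.

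Ndufa4l2 stood apart from the block. Its protein is related to Ndufa4, which was first counted in complex I and is now counted in cytochrome c oxidase, and in human and mouse cells NDUFA4L2 is known as a gene induced by low oxygen. Ndufa4l2 (chromosome 7, 63356883 to 63359010, plus strand) had 1.68, 1.28, 1.65, 3.32 and 3.69 FPKM in the combination, 1.62, 2.85, 0.696, 2.12 and 2.67 FPKM with semaglutide, and 7.78, 12.5, 6.29 and 0.886 FPKM with PYY. It had 2.09, 3.73, 1.93, 1.56 and 2.87 FPKM in MetOP saline and 2.51, 0.916, 1.22 and 6.56 FPKM in healthy controls. PYY libraries A215, A216 and A219 were above every library of the other MetOP groups, and PYY A220 was below all of these but semaglutide A241. EdgeR's log2 fold change was 1.46 ± 0.61 for PYY against MetOP saline (adjusted p = 0.952), -1.54 ± 0.61 for the combination against PYY (adjusted p = 0.726) and -1.75 ± 0.61 for semaglutide against PYY (adjusted p = 0.183).

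Ndufa4 itself went with the subunits. It had 103.2, 111.3, 40.4, 64.05 and 8.01 FPKM in the combination, 85.1, 95.6, 61.4, 79.5 and 103.4 FPKM with semaglutide, 31.97, 11.3, 32.75 and 92.2 FPKM with PYY, 49.8, 68.7, 29.6, 54.3 and 70.3 FPKM in MetOP saline, and 44.35, 117.2, 75.45 and 74.1 FPKM in healthy controls. Ndufa4l2 thus made up 19.6, 52.5, 16.1 and 0.952% of the summed FPKM of the pair with PYY, against 2.80 to 6.12% in MetOP saline, and 31.5% in combination A320. Endothelial markers were high in the same PYY libraries as Ndufa4l2. Their 7 genes summed to 131.1 CPM in PYY A220 and to 254.6 CPM or more in the other PYY libraries, against 108.2 to 174.6 CPM in MetOP saline. All 7 were higher with PYY (median 0.93), 6 of them at an unadjusted p under 0.05 and 0 after edgeR's adjustment. The orders differed among single libraries, since PYY A216 had the most Ndufa4l2 of its group but less endothelial RNA than A215 and A219, and healthy control A392, with 6.56 FPKM of Ndufa4l2, had 160.4 CPM of endothelial markers. At 3.69, 3.32 and 2.51 FPKM of Ndufa4l2, combination A320 and A318 and healthy control A387 had 248.4, 221.1 and 209.7 CPM of endothelial markers. Their part in the Ndufa4l2 values was not tested.

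**Figure D5:**
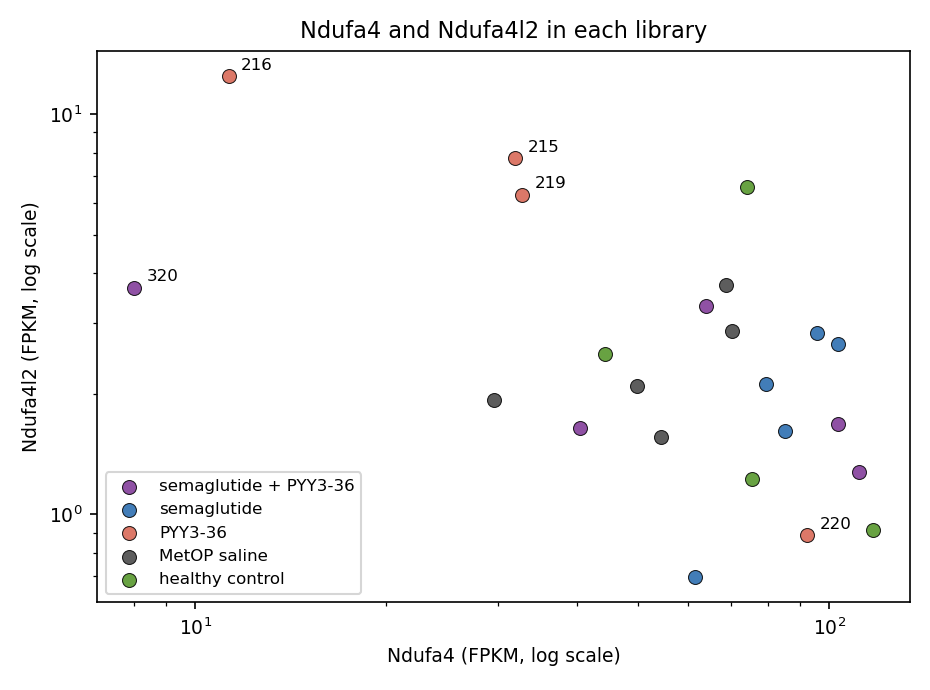
Both axes are logarithmic and give deposited FPKM, Ndufa4 on the horizontal and Ndufa4l2 on the vertical axis, with 1 point per library coloured by group. PYY libraries A215, A216 and A219 lie at the upper left, with 6.29 to 12.5 FPKM of Ndufa4l2 and 11.3 to 32.75 FPKM of Ndufa4, and PYY A220 lies at the lower right.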

How the data were processed

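Per the labels, polyadenylated RNA of femora was sequenced in 23 libraries. The authors deposited raw counts per gene for 30562 genes and FPKM values. In the values, the depth behind the deposited FPKM is proportional to the DESeq2 size factors. The build mRatBN7.2 and DESeq2 1.42.0 are named in the submitters' processing notes, while the aligner is not given in the sources used here, nor is the counter. Strand-specific and unstranded kits both appear in the labels' protocol, so strandedness is not known.

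Groups were taken from the titles, since each PYY library has its own peptide name under treatment. All libraries carry the same batch label. The 42 pairs of libraries within groups all differed by more than counting noise (lowest chi-square per degree of freedom 50.13), so none was counted as a library deposited a second time. This does not show that they are separate animals.

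Counts of all genes were fitted in R 4.3.3 with edgeR 4.0.16 (quasi-likelihood test, TMM, filterByExpr by group, robust), with 1 mean per group over 23 libraries and 18 residual degrees of freedom. This tested 15271 genes in 8 comparisons, with Benjamini-Hochberg adjustment over all of them and a threshold of 0.05. SE are the log2 fold change divided by the root of the F statistic. Alternatives used DESeq2 1.42.0, limma 3.58.1 (voom), other scaling, filter and samples, the muscle marker level as a covariate, and fits without each library in turn. The fits were tested on simulated data. Promoters are RefSeq's, of GRCr8, and coordinates otherwise those of the deposited table.

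The members and lists were chosen with earlier results of these data known, so none of their patterns is independent support. Named members are the core subunits, Ndufab1, Ndufs4, Ndufa4 and Ndufa4l2, the 3 highest and 3 lowest by FPKM, and per comparison the 2 highest, the 2 lowest and the 2 of smallest p, besides members that overlap another gene, were not tested or had a library far from its group. The row of 1 member is not reported here, and it entered the fits as a gene but no count or median of members.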

Additional observations from a re-analysis of the deposited data

Results flagged for a closer look

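Dixon's test was applied to the scaled CPM of 20 named members in each group, 100 groups in all, and set 5 values apart, where chance gives about 1 in 20. In MetOP saline, library A229 was low for Ndufv1, at 25.26 CPM with the nearest library at 59.8 CPM, and for Ndufs1, at 53.85 CPM with the nearest at 104.5 CPM. Ndufa2 was highest in PYY A220, at 35.59 CPM with the nearest at 11.59 CPM. Ndufa3-ps3 was lowest in PYY A216, at 0.105 CPM with the nearest at 0.769 CPM, and in MetOP saline A224, at 0.308 CPM with the nearest at 1.695 CPM.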

How the results depend on the processing

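No paired analysis was possible because the library numbers in the titles are unique and no number is shared between groups. No member was called by DESeq2, by limma voom, with DESeq2 size factors, without mitochondrially encoded genes, without a filter, in fits of only the groups compared, or with the muscle level as a covariate. DESeq2 called more genes than edgeR, with 51 for MetOP saline against healthy controls, 97, 5 and 5 for semaglutide, PYY and the combination against MetOP saline, 16 and 13 for the combination against semaglutide and against PYY, 504 for semaglutide against PYY and 3 for the interaction. Limma voom called 1 for the combination against PYY. In a fit of only their own groups, 21 of 40 members had an unadjusted p under 0.05 for semaglutide against MetOP saline, and 0 were called. The share of all genes at that threshold in this fit is not given here. The 21 therefore cannot be called particular to the members.

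With the muscle level as a covariate the median for semaglutide against PYY was -0.0203 and for the combination against PYY -0.186. The medians for PYY (0.19) and the combination (-0.0023) against MetOP saline and for the interaction (-0.33) changed sign as well. So did Ndufs1 for the combination against PYY (-0.72), Ndufa4l2 for the combination against semaglutide (-0.0583), Ndufa2 for semaglutide against PYY (-0.3127), Ndufs8 for PYY against MetOP saline (0.4422), Ndufc1 for MetOP saline against healthy controls (0.3206) and Ndufc1 for the interaction (-0.0035). Ndufa3-ps3 changed sign for semaglutide against MetOP saline with limma voom (0.37), as for the combination against semaglutide (-0.23). Ndufs8 for PYY against MetOP saline also changed sign with DESeq2 size factors (0.0048), with DESeq2 (0.0051) and in a fit of only those groups (0.042). Without PYY A216 and combination A320, a choice made after seeing the data, the medians were -0.05 for PYY and 0.47 for the combination against MetOP saline, and Ndufc1 in the second was 0.0165, while Ndufs8 in the first was 0.2336. Without semaglutide A242 and PYY A220, also chosen after seeing the data, edgeR called 847 genes and 4 members for semaglutide against PYY, 22 genes for the combination against PYY and 1 for PYY against MetOP saline.

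Leaving out each library in turn gave 1 to 1021 called genes and 0 to 11 called members for semaglutide against PYY, and 0 to 1 genes for PYY against MetOP saline, 0 to 3 for the combination against semaglutide and 0 to 2 for the combination against PYY. Log2 fold changes ran between -0.15 and 0.93 for Ndufs1 in the combination against PYY, between -0.46 and 0.0074 for Ndufc1 in the combination against MetOP saline, between -0.25 and 0.56 for Ndufa3-ps3 and between -0.23 and 0.16 for Ndufc1 in MetOP saline against healthy controls, between -0.32 and 0.23 for Ndufa3-ps3 in the combination against semaglutide, and between -0.37 and 0.17 for Ndufs8 in PYY against MetOP saline. The causes were not tested. Depth, at 4.28 to 16.1 M counts outside mitochondrially encoded genes, limits the rows named as pseudogenes, and the spread between libraries limits the subunits.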
